A study of Mus musculus with 12 samples.

Results

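This report compares left ventricles of mice with heart failure with preserved ejection fraction (HFpEF) that received the HDAC6 inhibitor TYA-018 with left ventricles of HFpEF mice that received vehicle. The 8 libraries were taken by their sample labels, 4 named HFpEF-TYA-018 (T1 to T4) and 4 named HFpEF-Veh (V1 to V4), of 12 libraries in the series. The other 4 came from non-failing mice given vehicle (Control-Veh, C1 to C4). Each library held poly(A) RNA of the left ventricle of 1 wild-type C57BL6 mouse, and libraries are numbered in the order of the animal numbers. All 8 HFpEF mice had eaten a high-fat diet and received L-NAME, which blocks nitric oxide synthases, and the study's methods describe male mice. TYA-018 was given by mouth at 15 mg/kg, and vehicle was a mixture of DMSO, PEG-300 and water. The labels disagree on the dosing, since the title of the series speaks of a single dose and the treatment protocol of daily doses for weeks. The study's text describes RNA-seq of hearts taken hours after a single dose, and the daily dosing in its methods is given for its efficacy tests. Animals of a group carried neighbouring numbers, and anything that followed those numbers, such as housing or the day of collection, cannot be told apart from the dose.

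HDAC6 is a mostly cytoplasmic deacetylase. Its best known substrates are alpha-tubulin, cortactin and the chaperone HSP90. In HFpEF the ventricle contracts but relaxes and fills poorly, with hypertrophy, interstitial fibrosis, inflammation and altered use of fatty acids, ketones and glucose. Nppb, which encodes the natriuretic peptide BNP, is the standard transcript of ventricular wall stress.

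The total estimated count was between 61.2 and 66.1 M in HFpEF-Veh and between 62.7 and 83.9 M in HFpEF-TYA-018, with T1 the deepest. Transcripts of the mitochondrial genome took 38.9 ± 2.65% of counts in HFpEF-TYA-018 and 45.1 ± 2.06% in HFpEF-Veh (SD, n = 4). Globin transcripts took 0.296 ± 0.0424% and 0.770 ± 0.397%, and the highest library was V1, at 1.32%. The median log2 effective length of transcripts, relative to the mean of all libraries, was -0.0657 ± 0.0689 and 0.0779 ± 0.0302. None of these 3 measures overlapped between the 2 groups, and each gave a two-sided exact permutation p of 0.0286, the smallest that 4 against 4 libraries allow (0.0667 adjusted over 7 library measures). The 10 cardiomyocyte markers summed to 28138 to 30385 CPM, the count scaled to library size, in HFpEF-Veh and 32444 to 36149 in HFpEF-TYA-018, and the 7 tested atrial markers summed to 84.0 to 172 and 173 to 189 CPM. The plot of shares and markers by library shows that fibroblast, endothelial and macrophage markers were lower after TYA-018 and cardiomyocyte markers higher.

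**Figure D1:**
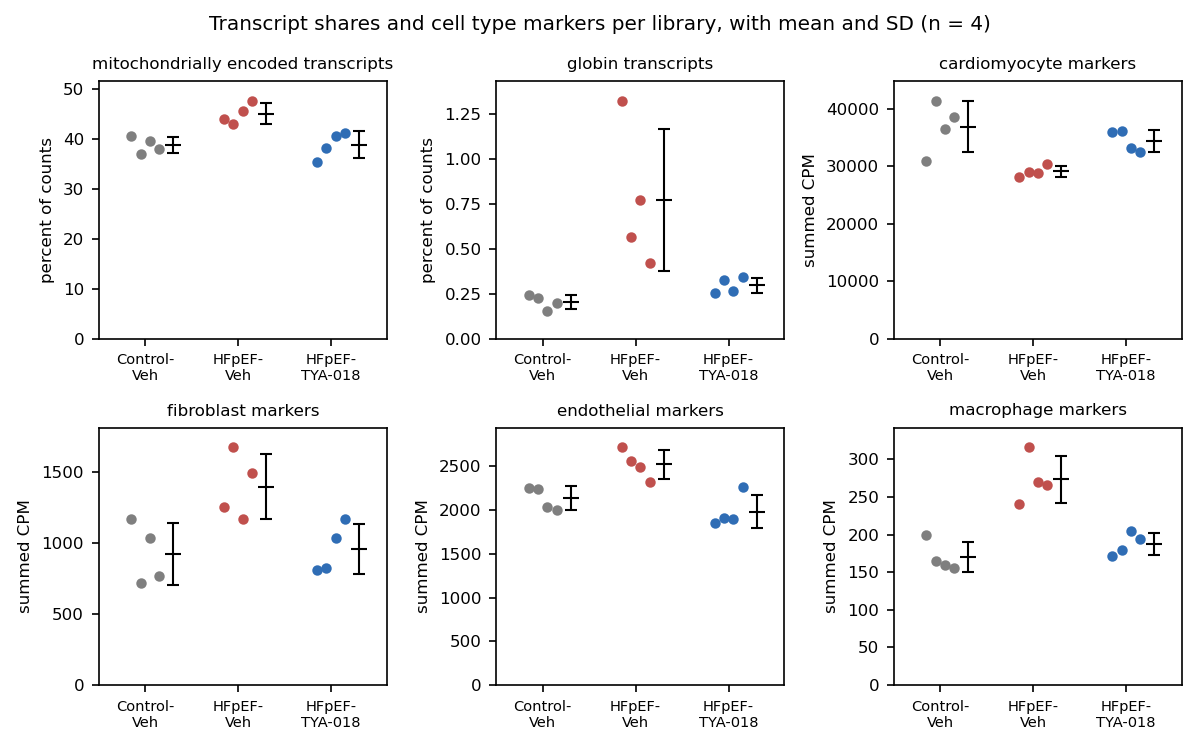
Each point is 1 library, with the group mean and SD beside it (n = 4). The upper left panels give the percent of all counts from mitochondrially encoded and globin transcripts, and the other panels give the summed CPM of cell type markers. The HFpEF-TYA-018 libraries lay below all HFpEF-Veh libraries for the mitochondrially encoded, globin, endothelial, macrophage and fibroblast sums, and lay above them for cardiomyocyte markers.

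TYA-018 changed many transcripts by a small amount. Of 14333 genes tested, 2767 (19.3%) differed from HFpEF-Veh at an adjusted p under 0.05, 1280 higher (8.93%) and 1487 lower (10.4%). The median log2 fold change was 0.36 among genes called higher and -0.48 among genes called lower, and 0.00 over all genes. At least 2-fold changes were called for 214 genes (1.49%), 70 higher and 144 lower. All 4 libraries of a group lay beyond all 4 of the other for 3600 genes (25.1%), and 2461 of these were also called. For comparison, 3033 genes (21.2%) differed between HFpEF-Veh and Control-Veh and 840 (5.86%) between HFpEF-TYA-018 and Control-Veh. These 3 comparisons share libraries, so values of Control-Veh are given below side by side, without a test of likeness.

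**Figure D2:**
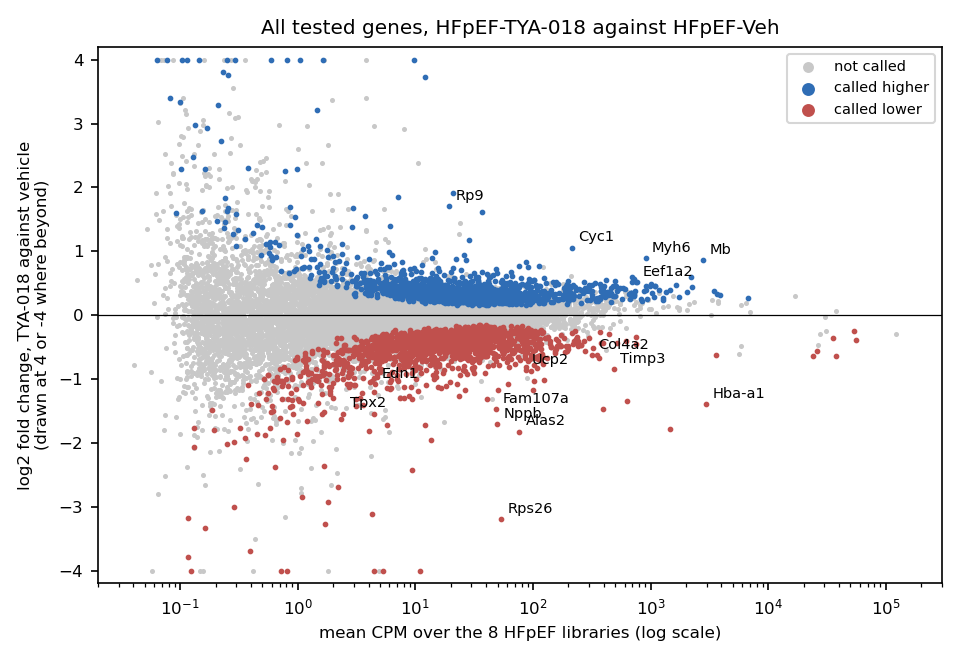
Each point is 1 of the 14333 tested genes, by its mean CPM over the 8 HFpEF libraries (log scale) and its log2 fold change in HFpEF-TYA-018 against HFpEF-Veh. Genes called higher (1280) and lower (1487) are coloured, and changes beyond 4 or -4 are drawn at that limit.

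The split between rises and falls depended on the scale. On log2(TPM + 1) values, 2228 genes were higher and 68 lower (97.0% of calls higher, against 46.3% on counts), and the median of all genes stood at 0.17. In T1 the short mitochondrial transcript mt-Atp8 took 5.67% of TPM, against 20.7, 22.7 and 26.7% in T2 to T4 and 23.2 to 26.4% in HFpEF-Veh. When TPM was rescaled over protein-coding genes, 353 genes were higher and 389 lower. Short transcripts rose more often than long ones. Of the 3432 genes with the shortest transcripts, 412 were called higher and 191 lower, and of the 3430 with the longest 167 and 513. An offset that removed this trend and that with GC content, chosen after the data were seen, left 2835 calls. With a red cell score as a covariate no gene was called in edgeR (0, with 1405 at an unadjusted p under 0.05), and this score did not overlap between the groups. Without V1 and V3, the HFpEF-Veh libraries with the most globin, 891 genes were called. Without T1 the count was 1485 and without T2 1631, and without any other HFpEF library it was between 1913 and 2729. For groups of lists below, the numbers called under 4 alternatives are given in a fixed order: without V1 and V3, with the deposited effective lengths as an offset, on rescaled protein-coding TPM and on log2(TPM + 1). In what follows, † marks a called gene whose difference had the opposite sign on log2(TPM + 1), and ‡ marks a called gene that lost its call in at least 1 of the 8 fits that leave out 1 HFpEF library. For 32 combinations of gene list and direction no gene was called in edgeR, with 9 genes in all at an unadjusted p under 0.05 and 5 called by DESeq2.

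The genes with the largest and the most certain changes were mixed in function. Myh6, the adult alpha myosin heavy chain (chr14:54941921-54966927, GRCm38, minus strand), was at 705, 678, 528 and 633 CPM in V1 to V4 and at 1467, 1326, 1059 and 885 CPM in T1 to T4. As the naming rule below required, every HFpEF-TYA-018 library exceeded every HFpEF-Veh library. The groups did not overlap for 25.1% of all tested genes. The rise of Myh6 was 1.86-fold (log2 fold change 0.90 ± 0.17, adjusted p 0.00493). Here and below ± after a log2 fold change is the SE. Myh6 shares 29.2% of its 31-base words with other genes, mainly Myh7, and the sum of both rose from 828 ± 120.1 to 1337 ± 252 CPM (SD, n = 4). Cyc1, the cytochrome c1 subunit of complex III, was at 140.4, 159, 121 and 135 CPM in HFpEF-Veh and, after TYA-018, 362, 312, 253 and 231 CPM, a 2.08-fold rise (adjusted p 0.00237). Mb, the oxygen store myoglobin, rose 1.81-fold from 1984 ± 202 to 3594 ± 753 CPM, and shares 27.7% of its words with other genes, mainly Gm49540. Among the smallest adjusted p values was that of Rp9 (4.47e-05), a gene linked to retinal disease and splicing. Rp9 stood at 8.25, 10.2, 8.75 and 9.01 CPM in HFpEF-Veh and at 31.7, 31.6, 27.8 and 27.5 CPM in HFpEF-TYA-018. Its level in HFpEF-TYA-018 was also higher than in Control-Veh (11.5 ± 1.96 CPM, adjusted p 0.000167).

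The naming rule took called protein-coding genes at 5 CPM or more on average whose 2 groups of libraries did not overlap. Among these genes, the other large rises were those of Acy1, an aminoacylase (1.39 ± 0.25), Carns1, which makes the muscle dipeptide carnosine (0.99 ± 0.18), Ptov1 (0.98 ± 0.14), Gramd1b, a sterol transporter (0.94 ± 0.17), Ky, a muscle protein of the Z-disc (0.94 ± 0.20), Art5 (0.90 ± 0.17), the splicing factor Cwc15 (0.89 ± 0.16), Tmem82 (0.86 ± 0.12) and the kinase Mknk2 (0.84 ± 0.22‡). Rises that were smaller but very even between libraries included Eef1a2, the elongation factor isoform of muscle, at 626, 609.7, 639 and 609.6 CPM in HFpEF-Veh against 855, 849, 922 and 921 CPM in HFpEF-TYA-018. Ptpn3, a phosphatase (0.60 ± 0.06), Abcb8, a mitochondrial transporter (0.54 ± 0.06), Mrpl9 of the mitochondrial ribosome (0.44 ± 0.05) and Prdx3, the mitochondrial peroxiredoxin (0.45 ± 0.05), were of the same kind. Rps7 had the largest fitted rise among these genes (1.85 ± 0.45), but it shares 30.6% of its words with pseudogenes. Summed with the 2 closest of them it was at 106 ± 13.4 CPM in HFpEF-Veh against 109 ± 14.02 CPM in HFpEF-TYA-018, within the spread. Carns1 and Tmem82 share 43.0% and 23.1% of their words with other genes.

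Nppb (chr4:147985788-147987205, GRCm38, plus strand) had the largest fall among heart muscle genes. It was at 97.8, 45.5, 94.1 and 66.7 CPM in HFpEF-Veh, at 12.1, 28.3, 24.5 and 28.6 CPM in HFpEF-TYA-018 and at 22.7, 36.6, 32.6 and 22.4 CPM in Control-Veh. No dosed library reached the lowest vehicle library, and the fall was 3.26-fold (log2 fold change -1.70 ± 0.30, adjusted p 0.00355). Fam107a, an actin-associated stress gene, fell 2.77-fold from 62.4, 69.9, 75.7 and 78.4 to 24.6, 24.7, 25.2 and 29.0 CPM (adjusted p 0.000287). Hpcal1, a neuronal calcium sensor, fell to 17.9, 19.0, 19.1 and 20.7 CPM from 35.1, 38.0, 34.2 and 37.9 CPM, with the smallest p of any fall (adjusted p 4.47e-05). For both genes each group spanned a narrow range and the ranges lay far apart, though the naming rule required that they not overlap. Tinagl1, a matricellular protein of basement membranes (-1.02 ± 0.09), Dab2ip, a RAS GTPase activator (-0.72 ± 0.07), and Arhgap27 (-0.58 ± 0.05) fell with comparably small errors. Arhgap27 shares 21.6% of its words with other genes.

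Most of the remaining large falls were in genes of red cells. Hbb-bs fell 3.43-fold, Hbb-bt 2.75-fold, Hba-a1 2.63-fold and Hba-a2 2.53-fold. Alas2, the heme synthesis enzyme of red cells, was at 209, 71.3, 137 and 60.5 CPM in HFpEF-Veh and, after TYA-018, 26.2, 36.1, 29.1 and 43.6 CPM. Cd24a (-1.71 ± 0.24), Bpgm (-1.32 ± 0.21) and Isg20 (-1.31 ± 0.22) showed the same order of vehicle libraries, highest in V1 and V3 and lowest in V4. Of 9 tested red cell markers 8 were lower and none higher, with a median of -1.46, and the list summed to 14327, 6091, 8056 and 4881 CPM in V1 to V4 and 2366 to 3652 CPM after TYA-018. How far blood left in the ventricle took part in other changes was not tested. Rps26, a ribosomal protein gene, had the largest fall among genes that met the naming rule (-3.20 ± 0.41), from 123, 133, 96.2 and 33.5 to 7.85, 6.88, 17.6 and 9.80 CPM. Its sequence is shared in part (20.2%) with 7 other genes, and 2 other ribosomal protein genes were called lower.

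**Figure D3:**
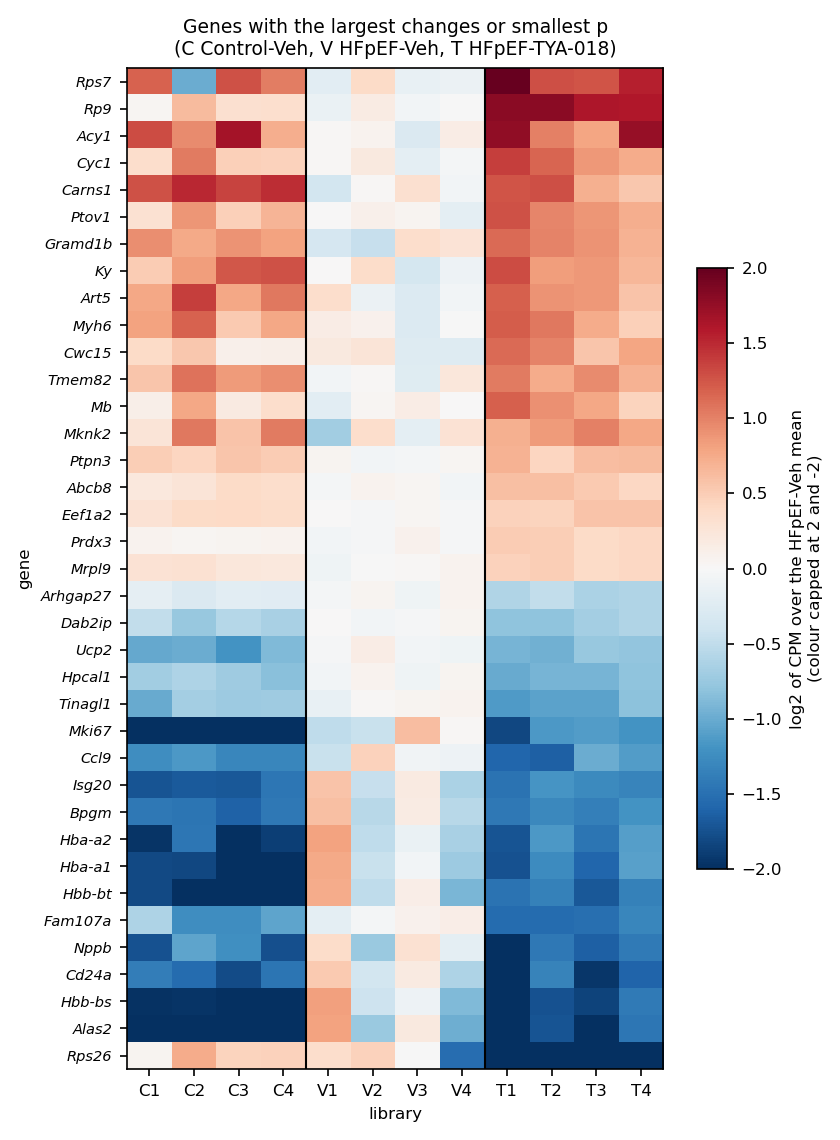
Rows are 37 of the genes named for the largest change or the smallest p, ordered by log2 fold change, and columns are the 12 libraries. Colour gives log2 of the CPM over the HFpEF-Veh mean, capped at 2 and -2, so the HFpEF-Veh block is pale. Among HFpEF-Veh libraries V1 was highest for the globins and Alas2, and T1 reached the upper limit for Rps7.

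Transcripts of the drug's own target and its relatives changed by small folds. Hdac6 was at 13.05, 10.8, 11.4 and 11.3 CPM in HFpEF-Veh, at 15.5, 13.5, 14.8 and 12.1 CPM in HFpEF-TYA-018 and at 14.8, 14.4, 15.8 and 14.99 CPM in Control-Veh. The dosed libraries overlapped V1, and the rise of 1.20-fold was called only narrowly (adjusted p 0.0486; ‡, lost in 6 of the 8 fits). Of 11 histone deacetylase genes, 5 were called higher and 2 lower, with a median of 0.29. Hdac11 (0.50 ± 0.08) and Hdac5 (0.31 ± 0.05) rose, as did Hdac3‡ and Hdac4‡, while Hdac7 (-0.27 ± 0.06†) and Hdac1 (-0.30 ± 0.08†‡) were lower on CPM and not on log2(TPM + 1). The number called higher was 2 to 5 (2 without T1, 2 without T2, 3 without T3, 3 without V2, 2 without V3 and 3 without V4) with each library left out in turn, and 2, 2, 1 and 3 under the 4 alternatives. For Hdac1, 40.0% of its words are shared with other genes.

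Tubulin genes, whose protein product is the main cytoplasmic substrate of HDAC6, were lower. Of 16 tubulin and tubulin acetylation genes, 6 were called lower and none higher, with a median of -0.28, and 4 to 6 were called with each library left out in turn and 2, 3, 2 and 0 under the 4 alternatives. Tubb5 was at 100.7, 107, 109 and 102 CPM in HFpEF-Veh against 79.7, 87.3, 83.6 and 84.3 CPM in HFpEF-TYA-018. Tuba1a fell by 0.42 on the log2 scale, and because alpha-tubulin genes share most of their sequence the sum over 8 related genes was taken, which fell from 265 ± 8.49 to 211 ± 1.73 CPM (SD, n = 4). The acetyltransferase Atat1 (0.05 ± 0.08) and the second tubulin deacetylase Sirt2 (0.05 ± 0.05) did not pass the test. Of 28 cytosolic chaperone genes 3 were higher and none lower, near the share of all genes, among them Stub1, the ubiquitin ligase CHIP (0.54 ± 0.13), whose sequence overlaps that of its neighbour Jmjd8 (37.0% shared).

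Among heart muscle genes, the stress markers did not move as a group. Of 15 cardiac stress genes 2 were called lower, Nppb and Ctgf (log2 fold change -0.57 ± 0.13, adjusted p 0.0117), and none higher. These calls made up 13.3% of the list, near the 10.4% called lower among all genes. The median of -0.16 turned positive relative to all genes on log2(TPM + 1). Nppa, the atrial natriuretic peptide, was at 112 ± 39.2 CPM in HFpEF-Veh and, after TYA-018, 148 ± 10.5 CPM and did not pass (adjusted p 0.274). Neither did the fetal isoforms Myh7 (-0.33 ± 0.33) and Acta1 (-0.13 ± 0.33) or Ankrd1 (-1.07 ± 1.90).

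Sarcomere genes rose where they changed, with 11 of 33 called higher, none lower and a median of 0.18. When 1 library at a time was left out, 7 to 10 (7 without T1) were called, and under the 4 alternatives 4, 4, 3 and 16. Beside Myh6, these included the essential light chain Myl3 (0.60 ± 0.20‡), the myosin-binding protein Mybpc3 (0.36 ± 0.08), the M-band protein Myom2 (0.45 ± 0.11‡) and tropomyosin Tpm1 (0.26 ± 0.08‡). The muscle ubiquitin ligases Fbxo32, known as atrogin-1, and Trim63, known as MuRF1, were in this list and also rose. Fbxo32 went from 45.0, 44.7, 50.4 and 58.7 to 83.5, 65.2, 85.8 and 84.0 CPM (adjusted p 0.00189), and Trim63 rose by 0.59 on the log2 scale. Fbxo32 in Control-Veh was at 80.5, 73.6, 71.5 and 73.1 CPM, which lay with the dosed libraries.

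Genes that carry calcium and electrical current changed in both directions. Of 22 calcium handling genes 4 were higher and 3 lower (31.8% called, against 19.3% of all genes). With each library left out in turn 2 to 5 (2 without T2, 2 without T3, 2 without V1 and 2 without V2) were higher and 1 to 3 (1 without T1, 1 without T2, 1 without V3 and 1 without V4) lower. The calcium pump Atp2a2 (0.31 ± 0.09‡), its inhibitor Pln (0.29 ± 0.08‡), the luminal calcium binder Hrc (0.35 ± 0.08) and the channel subunit Cacnb2 rose. Cacnb2 was at 26.1, 20.1, 21.3 and 24.1 CPM in HFpEF-Veh against 29.5, 41.0, 37.6 and 31.8 CPM in HFpEF-TYA-018. Atp2b1, a calcium pump of the plasma membrane, was among those lower (-0.33 ± 0.10†‡). Of 26 ion channel and connexin genes 9 were higher and 2 lower, with a median of 0.15. The range of those higher was 6 to 8 in fits without 1 library, and 1 was lower in each. The 4 alternatives gave 1, 4, 3 and 8 calcium genes and 5, 7, 3 and 10 channel genes called higher.

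Kcnip2, the auxiliary subunit of the transient outward potassium current, was higher after TYA-018. It was at 54.1, 47.3, 55.5 and 51.5 CPM in HFpEF-Veh, at 87.1, 84.4, 75.0 and 73.4 CPM in HFpEF-TYA-018 and at 77.2, 111, 94.5 and 92.8 CPM in Control-Veh (log2 fold change 0.62 ± 0.10, adjusted p 0.00268). Kcnj5 of the acetylcholine-gated channel (0.52 ± 0.09), the ventricular connexin Gja1 (0.48 ± 0.09) and the sodium channel beta subunit Scn4b (0.54 ± 0.11) were also higher. Kcna5, a repolarising potassium channel, fell from 62.3, 63.1, 61.1 and 60.7 to 46.3, 46.2, 43.6 and 48.1 CPM, and all 4 libraries of each group lay within a few CPM of each other. On log2(TPM + 1) the Kcna5 difference was 0.00380, against 0.17 for the median of all genes. With effective lengths as an offset and on rescaled protein-coding TPM it was -0.44 each.

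Genes of the extracellular matrix were lower. Of 23 collagen chains 12 were called lower (52.2%, against 10.4% of all genes) and none higher, with a median of -0.45. Col3a1, a chain of fibrillar collagen III, was at 103, 167, 119 and 126 CPM in HFpEF-Veh, at 68.0, 68.9, 84.1 and 77.6 CPM in HFpEF-TYA-018 and at 73.2, 42.1, 52.9 and 51.4 CPM in Control-Veh. The groups did not overlap, and the fall was 1.73-fold (log2 fold change -0.79 ± 0.17, adjusted p 0.00887). Col4a2 of the basement membrane was at 365, 369, 434 and 375 CPM in HFpEF-Veh and 231, 258, 244 and 265 CPM in HFpEF-TYA-018 (log2 fold change -0.63 ± 0.08, adjusted p 0.000725). Its level in HFpEF-TYA-018 was above that in Control-Veh (205 ± 13.8 CPM, adjusted p 0.0468). Col1a1 (-0.50 ± 0.13‡), Col1a2 (-0.46 ± 0.14‡), Col5a2 (-0.61 ± 0.14) and Col6a2 (-0.59 ± 0.09) fell as well, while Col4a1 (-0.39 ± 0.35) and Col6a3 (-0.34 ± 0.14) did not pass the test. Across the 8 leave-one-out fits 8 to 12 collagen chains were called lower.

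Of 44 other matrix and matricellular genes 21 were lower and 1 higher, with a median of -0.40. Thbs1, which activates latent TGF-beta, was at 7.67, 7.89, 9.19 and 8.57 CPM in HFpEF-Veh and, after TYA-018, 2.43, 3.67, 4.69 and 4.15 CPM (log2 fold change -1.16 ± 0.20, adjusted p 0.00344). Tnc, a matrix protein of injured tissue (-1.37 ± 0.35‡), Postn (-0.56 ± 0.14‡), Fn1 (-0.64 ± 0.15), Sparc (-0.62 ± 0.15‡), Eln (-0.77 ± 0.21‡) and the microfibril protein Mfap5 (-0.66 ± 0.14) fell. The exception was the laminin chain Lama5, at 105, 103, 80.2 and 110.3 CPM in HFpEF-Veh against 179, 152, 152 and 115 CPM in HFpEF-TYA-018, whose lowest dosed library, T4, was close to the highest vehicle library. In fits without 1 library 9 to 21 (9 without T1, 11 without T2 and 13 without V2) genes of this list were called lower.

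Enzymes that crosslink and turn over matrix, and their inhibitors, were lower in 19 of 37 cases and higher in none (median -0.33), and in 10 to 18 (10 without T1 and 11 without T2) cases with each library left out in turn. Timp3, an inhibitor of metalloproteinases, fell from 613, 639, 613 and 637 to 305, 337, 360.1 and 393 CPM (log2 fold change -0.84 ± 0.10, adjusted p 0.000637), and Control-Veh was at 475, 368, 368 and 375 CPM. Timp3 shares 21.9% of its words with other genes, mainly Syn3. Loxl2, a collagen crosslinking enzyme, fell from 17.3, 19.8, 19.7 and 17.9 to 9.07, 9.98, 10.1 and 9.99 CPM, and 46.4% of its words are shared, mostly with the gene model Gm21451. Lox (-1.14 ± 0.28‡), Timp1 (-0.93 ± 0.22), Mmp2 (-0.69 ± 0.20‡) and Mmp14 (-0.58 ± 0.13) were also lower. Of 28 TGF-beta pathway genes 14 were lower and none higher, with a median of -0.35. They spanned ligands (Tgfb1 -0.30 ± 0.06†, Tgfb2 -0.50 ± 0.14‡), receptors (Tgfbr2 -0.48 ± 0.13†‡, Eng -0.46 ± 0.09) and the pathway's own inhibitors. Skil, an inhibitor that TGF-beta signalling induces, was at 21.5, 19.9, 20.1 and 19.98 CPM in HFpEF-Veh and, after TYA-018, 9.45, 11.01, 14.6 and 11.7 CPM, and the inhibitory SMADs Smad6 (-0.66 ± 0.12) and Smad7 (-0.52 ± 0.14‡) fell with it. With each library left out in turn 7 to 16 (7 without T1, 8 without T2 and 9 without V4) of these genes were called lower.

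Markers of fibroblasts, the cells that make most matrix, were also lower. Of 10 fibroblast markers 6 were lower and none higher, with a median of -0.48, and the list summed to 1167 to 1672 CPM in HFpEF-Veh against 805 to 1164 CPM in HFpEF-TYA-018, which did not overlap but were close. When 1 library at a time was left out, 3 to 6 (3 without T1, 3 without T2 and 3 without V2) of them were called. Pdgfra, the receptor that defines resident fibroblasts, was at 27.0, 28.7, 24.96 and 29.7 CPM in HFpEF-Veh and 16.3, 17.2, 19.96 and 20.2 CPM in HFpEF-TYA-018. Of 10 markers of activated fibroblasts 4 were lower, including the transcription factor Meox1 (log2 fold change -0.63 ± 0.13, adjusted p 0.00817). In bulk tissue, fewer cells of a type and less RNA per cell cannot be told apart. Counts of matrix calls depended on the processing. Under the 4 alternatives 9, 8, 2 and 0 collagen chains were called lower, 8, 9, 4 and 0 other matrix genes, 8, 7, 7 and 0 enzymes and inhibitors, 4, 5, 4 and 0 TGF-beta pathway genes and 5, 5, 1 and 0 fibroblast markers. On log2(TPM + 1) the medians were -0.01, 0.02, 0.07, 0.03 and -0.03, each below the 0.17 of all genes. With the length and GC trend removed, 12 collagens, 22 other matrix genes and 17 enzymes were called.

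**Figure D4:**
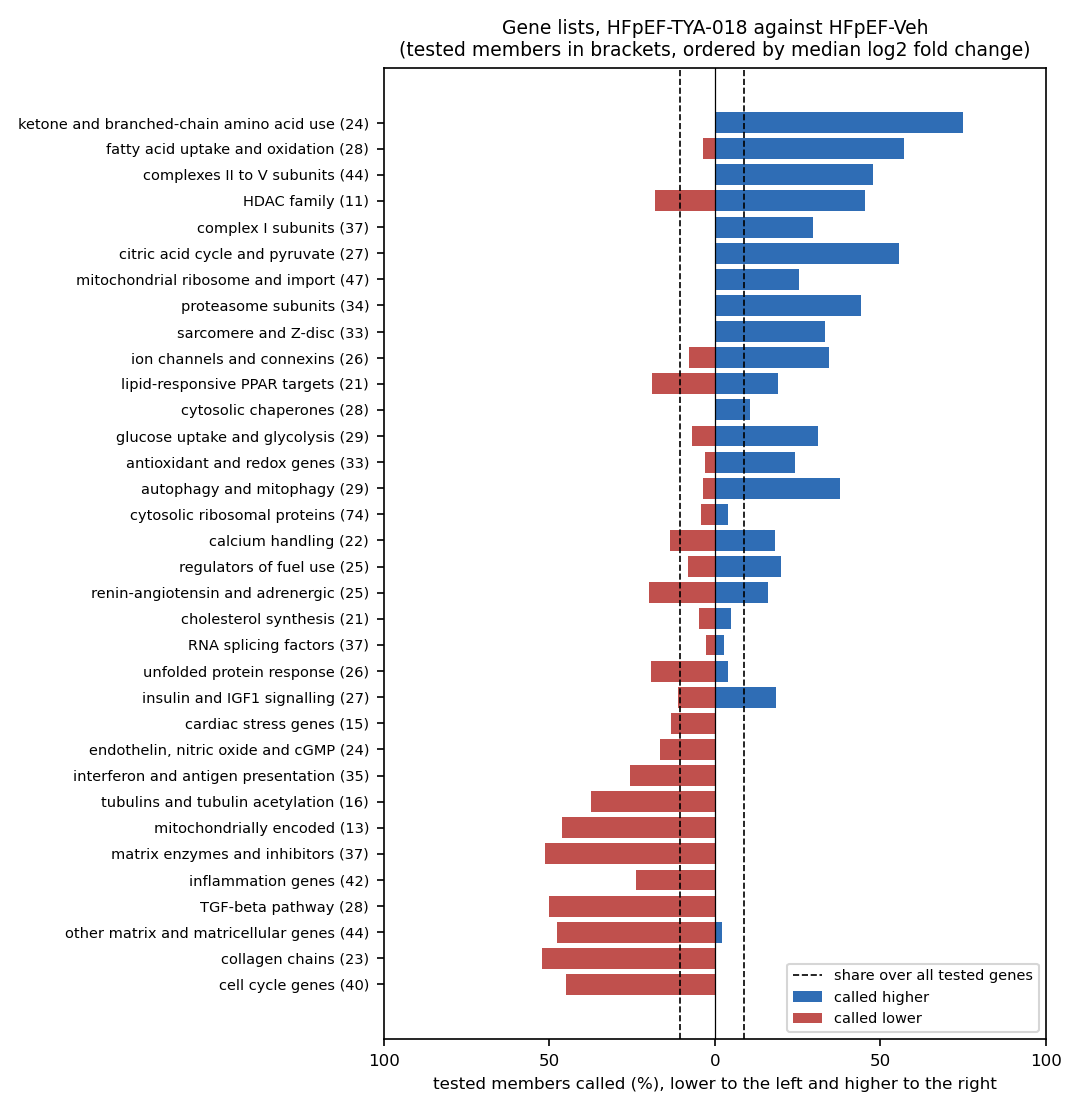
Bars give the percent of tested members of each gene list called higher (right) or lower (left) in HFpEF-TYA-018 against HFpEF-Veh, with the number tested in brackets, ordered by the median log2 fold change. Dashed lines mark the shares over all genes, 8.93% higher and 10.4% lower. Lists of cell type markers, of time of day and of handling are not plotted. Ketone and branched-chain amino acid use, with 18 of 24 called higher, is at the top, and collagens and cell cycle genes are at the bottom.

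Nuclear genes of energy metabolism were higher. Among branched-chain amino acid and ketone genes, 18 of 24 were called higher (75.0%, against 8.93% of all genes) and none lower, with a median of 0.35. Ppm1k, the phosphatase that switches on branched-chain ketoacid oxidation, was at 23.6, 23.8, 26.4 and 23.8 CPM in HFpEF-Veh, at 34.2, 32.8, 36.0 and 33.0 CPM in HFpEF-TYA-018 and at 39.8, 45.2, 38.9 and 43.0 CPM in Control-Veh. The dosed libraries lay between the other groups without overlap (log2 fold change 0.48 ± 0.06, adjusted p 0.00103; against Control-Veh -0.30 ± 0.06, adjusted p 0.019). Bcat2, which transaminates these amino acids (0.49 ± 0.09), Acad8 (0.45 ± 0.06), Ivd (0.49 ± 0.07) and Mccc1 (0.50 ± 0.12‡) of their breakdown, and the ketone enzymes Bdh1 (0.45 ± 0.15‡) and Oxct1 (0.39 ± 0.08) rose. Across the 8 leave-one-out fits 12 to 18 genes of the list were called higher, and under the 4 alternatives 13, 8, 6 and 15.

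Of 28 genes of fatty acid uptake and oxidation 16 were higher and 1 lower, with a median of 0.34. Most rises were in mitochondrial steps. Acads, the short-chain dehydrogenase, was at 124, 125.5, 133 and 131 CPM in HFpEF-Veh, at 186, 187, 168 and 172 CPM in HFpEF-TYA-018 and at 109.6, 124, 137 and 125.1 CPM in Control-Veh, and Acaa2, the thiolase, went from 582 ± 21.6 to 862 ± 66.2 CPM. Both were above Control-Veh after the dose (adjusted p 0.0027 and 0.00588) while HFpEF-Veh and Control-Veh did not differ at the threshold. Acadvl (0.52 ± 0.10), Cpt2 (0.44 ± 0.07), Hadhb (0.46 ± 0.07) and Decr1 (0.44 ± 0.11) rose, and the carnitine transferase Cpt1b rose by 0.31‡. Of the genes of uptake, the fatty acid carriers Cd36 (-0.32 ± 0.18) and Lpl (0.01 ± 0.09) did not pass and Fabp4, the carrier of fat cells and endothelium, was lower (log2 fold change -0.34 ± 0.09†‡, adjusted p 0.0241). In fits without 1 library 11 to 17 genes were called higher, and under the 4 alternatives 7, 5, 7 and 18.

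Of 27 citric acid cycle and pyruvate genes 15 were higher and none lower (median 0.28). Got2 of the malate-aspartate shuttle was at 453, 467, 466 and 492 CPM in HFpEF-Veh and, after TYA-018, 624, 632, 612 and 652 CPM, and Mdh1 (0.45 ± 0.08), Cs (0.34 ± 0.06) and Suclg1 (0.46 ± 0.10) rose. Idh3a was an uncalled member with a large negative value (-1.31 ± 1.34, adjusted p 0.529). In the respiratory chain, 11 of 37 complex I subunits and 21 of 44 nuclear subunits of complexes II to V were higher and none lower, with medians of 0.28 and 0.32. Ndufa9 of complex I was at 78.6, 82.7, 95.5 and 77.6 CPM in HFpEF-Veh against 152, 155, 146 and 119 CPM in HFpEF-TYA-018, above Control-Veh too (adjusted p 0.0128), and Atp5a1 of ATP synthase rose by 0.44. Leaving out each library in turn gave 5 to 12 (6 without T1, 5 without T2, 6 without V1 and 7 without V3) for complex I and 11 to 20 (11 without T1, 12 without T2, 13 without V3 and 13 without V4) for complexes II to V, and 9 to 15 (9 without T1 and 9 without T2) for the citric acid cycle. The 4 alternatives gave 2, 2, 5 and 21 for complex I, 7, 9, 10 and 29 for complexes II to V and 8, 3, 2 and 18 for the citric acid cycle. With the length and GC trend removed the medians of the 2 subunit lists were 0.17 and 0.22, with 12 and 22 subunits called.

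Transcripts of the mitochondrial genome were lower in part. Of its 13 protein genes 6 were lower and none higher, with a median of -0.30, and 1 to 7 (2 without T1, 2 without T2, 3 without V1, 3 without V2 and 1 without V4) with each library left out in turn. Without V1 and V3 none was called in edgeR (0), and with effective lengths as an offset 6 were. mt-Nd1‡ was at 40416, 40463, 36297 and 43231 CPM in HFpEF-Veh and, after TYA-018, 26860.4, 31671, 31047 and 35461 CPM, so V3 and T4 were close. mt-Atp6 fell from 46102 ± 8124 to 29597 ± 5878 CPM, but nearly all of its sequence (99.5%) is also in a nuclear copy, Gm10925. The sum of both went from 61335 ± 5079 to 48268 ± 7694 CPM, and the groups overlapped, with V3 at 55186 and T4 at 56245. mt-Nd3 (0.36 ± 0.37), mt-Nd4l (0.43 ± 0.21) and mt-Nd6 (0.27 ± 0.20), which are short or on the other strand, had positive values that did not pass. Of 47 mitochondrial ribosome and import genes, all encoded in the nucleus, 12 were higher and none lower (median 0.20), and 4 to 14 (5 without T1, 4 without T2, 5 without V1, 7 without V3 and 6 without V4) with each library left out in turn and 1, 6, 5 and 18 under the 4 alternatives.

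Many respiratory chain promoters carry the palindrome bound by nuclear respiratory factor 1. Its core, GCGCA and GCGC with 1 base of any kind between them, was searched on both strands in RefSeq windows from 250 bases before to 50 bases after the start site and was present in 10.7% of the 10421 tested genes that had a window. It was present in 7 of 33 complex I promoters (21.2%) and 11 of 33 promoters of complexes II to V (33.3%), and among called members in 0 of 9 and 5 of 15. The called members of complexes II to V with the motif and the smallest p were Sdha (0.34 ± 0.07) and Sdhd (0.30 ± 0.07), which encode a catalytic and an anchor subunit of succinate dehydrogenase. The stretches below run 5′ to 3′ on the gene's minus strand, for Sdha at chr13:74350274-74350393 and for Sdhd at chr9:50603864-50603983 (GRCm38.p6, from RefSeq), with the motif in capitals. They show that the same letters occur in genes that rose, and a match is no evidence of binding.
Sdha: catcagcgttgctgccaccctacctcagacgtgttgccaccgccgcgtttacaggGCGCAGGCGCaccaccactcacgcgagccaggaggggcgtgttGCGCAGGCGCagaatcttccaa
Sdhd: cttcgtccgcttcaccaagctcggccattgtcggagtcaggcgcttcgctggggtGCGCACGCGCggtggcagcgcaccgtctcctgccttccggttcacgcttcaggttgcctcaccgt

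Glucose genes rose less uniformly, with 9 of 29 higher and 2 lower (median 0.12). In fits without 1 library 7 to 10 were higher, and under the 4 alternatives 4, 3, 2 and 10. Eno3, the muscle enolase, went from 549, 558, 575 and 546 to 907, 882, 813 and 762 CPM, and Pygb, a glycogen phosphorylase, had a log2 fold change of 0.51 on CPM and of -0.00 with effective lengths as an offset. Hk1 (-0.24 ± 0.08†‡) and the glycogen targeting subunit Ppp1r3c (-0.57 ± 0.17‡) were lower, each near the threshold. Genes listed as PPAR targets were divided. Of 21, the 4 called higher included Ucp3 (0.60 ± 0.18‡), Slc25a34 (0.55 ± 0.10) and Vldlr (0.26 ± 0.08‡). The 4 called lower were Ucp2, Angptl4 (-0.71 ± 0.22‡), Cyp4b1 (-0.31 ± 0.06) and Tfrc (-0.80 ± 0.17), the transferrin receptor, which serves iron uptake. With each library left out in turn 1 to 3 (2 without T1, 2 without T3, 2 without T4, 1 without V2 and 2 without V3) were higher and 3 to 4 lower. Ucp2, an uncoupling protein of the inner membrane, had the smallest p of this list. It was at 109.7, 124, 108 and 105 CPM in HFpEF-Veh, at 58.4, 57.6, 65.8 and 64.8 CPM in HFpEF-TYA-018 and at 54.7, 56.0, 48.7 and 60.5 CPM in Control-Veh. On CPM the dosed libraries thus lay close to non-failing hearts (log2 fold change -0.86 ± 0.08, adjusted p 0.000293). Its mean TPM was 21.4 in HFpEF-Veh, 18.9 in HFpEF-TYA-018 and 10.4 in Control-Veh. The fall was -0.64 with effective lengths as an offset (adjusted p 0.0474). It was not called on rescaled protein-coding TPM (-0.65, adjusted p 0.0964) or on log2(TPM + 1) (-0.19, adjusted p 0.511).

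Among regulators of fuel use the estrogen-related receptors Esrra (0.29 ± 0.06) and Esrrb (0.35 ± 0.10‡), the partner receptor Rxrb (0.30 ± 0.05), the mitochondrial transcription factor Tfam (0.30 ± 0.07‡) and the deacetylase Sirt3 (0.35 ± 0.06) rose, 5 of 25 members, against 3 to 5 (3 without T1) in fits without 1 library and 2, 1, 0 and 4 under the 4 alternatives. Ppargc1a (-0.12 ± 0.16), Ppara (0.07 ± 0.27) and Nrf1 (-0.04 ± 0.09) did not pass. Pparg fell 1.99-fold, from 14.9, 15.1, 12.8 and 11.1 to 3.29, 7.99, 7.11 and 8.72 CPM (log2 fold change -0.996 ± 0.26, adjusted p 0.0195), with T1 lowest. Pparg is also a fat cell marker. Of 4 tested fat cell markers 2 were called lower, Pparg and Fabp4. The other 2 had positive values that were not called, and the median of the list was 0.38. Sirt1 fell at the edge of the threshold (log2 fold change -0.36 ± 0.11†‡, adjusted p 0.0428). Of all regulators of fuel use 28.0% were called, against 19.3% of all genes.

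Among genes of protein turnover, more were higher than lower in the proteasome and autophagy lists. Of 34 proteasome subunits 15 were higher and none lower (median 0.20), for example Psmc2 at 53.3, 53.8, 51.5 and 54.6 CPM in HFpEF-Veh against 70.6, 66.1, 62.1 and 66.2 CPM in HFpEF-TYA-018. Of 29 autophagy and mitophagy genes 11 were higher and 1 lower. Sqstm1, the ubiquitin-binding receptor p62 that HDAC6 is known to work beside in clearing aggregates, went from 316, 319.7, 313 and 343 to 415, 412, 460.2 and 473 CPM (log2 fold change 0.45 ± 0.07, adjusted p 0.00246), and the lysosomal protease Ctsd from 641 ± 29.3 to 797 ± 26.6 CPM. Ctsd shares 33.2% of its words with the gene model Gm49369. With each library left out in turn 7 to 15 (7 without T1 and 9 without T2) proteasome genes and 7 to 11 (7 without T1, 7 without T2 and 7 without V3) autophagy genes were called higher. The 4 alternatives gave 1, 7, 6 and 21 proteasome and 1, 3, 3 and 9 autophagy genes. The mitophagy receptor Bnip3l was the member that fell (-0.33 ± 0.08), and it is also abundant in maturing red cells. It shares 23.7% of its words with its copy Bnip3l-ps. Of 26 unfolded protein response genes 5 were lower, among them Pdia3 (-0.32 ± 0.07†) and the sensor kinase Eif2ak3 (-0.50 ± 0.12†), and 1 was higher, Chac1 (0.66 ± 0.21‡). Together 23.1% of this list was called, near the 19.3% of all genes. In fits without 1 library 3 to 5 (3 without T1, 3 without T2, 3 without T3, 3 without V1, 3 without V2, 3 without V3 and 3 without V4) were lower, and under the 4 alternatives 1, 1, 0 and 0. That list's median of -0.10 turned positive relative to all genes on log2(TPM + 1). Of 74 cytosolic ribosomal protein genes only 3 were called in each direction, and several, such as Rpl35 with 88.8% shared words, cannot be separated from copies.

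Immune genes were lower where they changed. Of 42 inflammation genes 10 were called lower (23.8%, against 10.4% of all genes) and none higher, with a median of -0.35. Ccl6 and Ccl9, chemokines of macrophages and neutrophils, fell 2.42-fold and 2.47-fold. Ccl6 was at 9.01, 14.3, 14.8 and 11.8 CPM in HFpEF-Veh, at 4.45, 4.47, 5.74 and 5.999 CPM in HFpEF-TYA-018 and at 7.42, 6.64, 5.88 and 7.36 CPM in Control-Veh (adjusted p 0.000926). The fibroblast chemokine Cxcl12 (-0.53 ± 0.11), the adhesion molecule Icam1 (-0.36 ± 0.11†‡) and the interleukin 1 receptor Il1r1 (-0.46 ± 0.10†) also fell. Nlrp3 (-1.09 ± 0.31‡) and Ptgs2 (-1.04 ± 0.33‡) were called at means below 1 CPM in both groups. Tnf (0.152 ± 0.0747 and 0.173 ± 0.0990 CPM) and Il1b (0.204 ± 0.0663 and 0.274 ± 0.126 CPM) did not pass. When 1 library at a time was left out, 4 to 9 (4 without T1, 6 without T2, 5 without T3 and 4 without V2) genes were called lower, and under the 4 alternatives 3, 5, 4 and 3.

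Resident macrophage markers were lower too. Of 13 tested macrophage markers 6 were lower and none higher, with a median of -0.53, and their sum was 240.1 to 316 CPM in HFpEF-Veh and, after TYA-018, 172 to 204 CPM, without overlap. Mrc1, the mannose receptor, was at 20.5, 23.1, 18.3 and 17.9 CPM in HFpEF-Veh against 8.78, 10.5, 11.7 and 10.03 CPM in HFpEF-TYA-018 (log2 fold change -0.96 ± 0.12, adjusted p 0.000725). Lyve1, shared by resident macrophages and lymphatic endothelium, fell 2.17-fold. The numbers of macrophage markers called lower under the 4 alternatives were 5, 6, 6 and 0. Of 13 tested lymphocyte and neutrophil markers none was called in edgeR (0). The part of macrophage number in the fall of the chemokines was not tested.

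Some interferon genes were lower. Of 35 interferon and antigen presentation genes 9 were lower (25.7%, against 10.4% of all genes) and none higher (median -0.26). Rsad2, the antiviral enzyme viperin, was at 33.2, 22.5, 30.98 and 19.3 CPM in HFpEF-Veh and, after TYA-018, 10.2, 14.2, 13.04 and 13.8 CPM (log2 fold change -1.05 ± 0.19, adjusted p 0.00404). Among vehicle libraries V1 and V3 were highest, as for red cell genes. Ifit2 (-0.57 ± 0.15‡), Ifit3 (-0.59 ± 0.16‡), Isg15 (-0.67 ± 0.18‡), Irf7 (-0.42 ± 0.11‡), Oasl2 (-0.44 ± 0.11†‡) and B2m of the class I complex (-0.56 ± 0.14‡) fell, while Bst2 (0.03 ± 0.13) and H2-K1 (0.45 ± 0.20) did not pass. In fits without 1 library 2 to 8 (2 without T1, 4 without V1, 4 without V2 and 4 without V3) were called lower, and under the 4 alternatives 1, 7, 3 and 0.

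The interferon-stimulated response element, searched on both strands as 2 runs of GAAA with 2 bases of any kind between them, was in 3.79% of promoter windows of tested genes, in 12 of 25 windows of this list (48.0%) and in 5 of the 9 windows of called members. The called members with it and the smallest p were Rsad2 and B2m. For Rsad2 the stretch lies at chr12:26456508-26456627 on the minus strand, and for B2m at chr2:122147493-122147612 on the plus strand (GRCm38.p6, from RefSeq, 5′ to 3′, element in capitals). The element of Rsad2 reads on the opposite strand.
Rsad2: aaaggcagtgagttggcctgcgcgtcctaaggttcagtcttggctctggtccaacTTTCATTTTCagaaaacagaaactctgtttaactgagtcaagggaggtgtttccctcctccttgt
B2m: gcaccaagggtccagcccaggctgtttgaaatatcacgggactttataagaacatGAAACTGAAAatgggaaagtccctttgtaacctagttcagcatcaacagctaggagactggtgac

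Proliferation genes were lower after TYA-018, from low levels. Of 40 cell cycle genes 18 were called lower and none higher, with a median of -0.92, the lowest among the plotted lists. With each library left out in turn 8 to 19 (8 without T1, 8 without T2, 11 without T4, 8 without V3 and 9 without V4) were called, and 8, 7, 8 and 3 under the 4 alternatives. Mki67, the proliferation antigen, was at 7.41, 7.77, 16.2 and 10.7 CPM in HFpEF-Veh, at 2.97, 4.76, 4.86 and 4.59 CPM in HFpEF-TYA-018 and at 2.56, 1.73, 2.32 and 2.34 CPM in Control-Veh. Tpx2, a spindle assembly factor, fell 2.91-fold (log2 fold change -1.54 ± 0.25, adjusted p 0.00242). After the dose Mki67 and Tpx2 were still above Control-Veh (adjusted p 0.0474 and 0.0488). Mitotic genes such as Top2a (-1.41 ± 0.45‡), Ccna2 (-1.41 ± 0.30), Ccnb2 (-1.55 ± 0.27) and Ect2 (-1.67 ± 0.38) fell, while replication genes such as Mcm2 (0.03 ± 0.16), Mcm4 (0.00 ± 0.11) and Pcna (0.19 ± 0.08) did not pass. Cdkn1a, the inhibitor p21, fell with them, from 115, 143, 152 and 138 to 67.8, 62.1, 54.4 and 84.9 CPM (adjusted p 0.00119).

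Transcripts of early red cells were lower too. Trim10, which is needed for erythroid maturation, was at 2.53, 1.18, 3.36 and 0.590 CPM in HFpEF-Veh against 0.212, 0.323, 0.187 and 0.342 CPM in HFpEF-TYA-018. This gene, chosen after its values were seen, was highest in V1 and V3, while Mki67 was highest in V3 and V4. Slc4a1, the red cell anion exchanger, fell by 3.11 on the log2 scale. Without V1 and V3 the median of the cell cycle genes was -0.77. The part of blood cells in the fall of these genes was not tested.

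Mitotic promoters often hold the cell cycle genes homology region, TTTGAA, and a CCAAT box. TTTGAA was in 14 of 31 windows of the list (45.2%, against 14.4% of all windows of tested genes) and in 8 of the 13 windows of called members, and CCAAT was in 26 of 31 (83.9%, against 42.6%), each on both strands. Ccnb2, a mitotic cyclin, and Mki67 were the called members with TTTGAA and the smallest p. Both stretches lie on the minus strand, at chr9:70421659-70421778 and chr7:135716433-135716552 (GRCm38.p6, from RefSeq, 5′ to 3′), and TTTGAA is in capitals.
Ccnb2: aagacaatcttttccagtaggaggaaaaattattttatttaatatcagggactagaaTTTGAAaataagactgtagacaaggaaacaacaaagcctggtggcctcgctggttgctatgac
Mki67: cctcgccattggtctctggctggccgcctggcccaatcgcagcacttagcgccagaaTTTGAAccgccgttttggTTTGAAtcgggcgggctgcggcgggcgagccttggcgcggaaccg

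Endothelial markers were lower on counts. Of 12 endothelial markers 7 were lower and none higher, with a median of -0.32 that came to 0.01 relative to all genes on log2(TPM + 1), and their sum was 2321 to 2721 CPM in HFpEF-Veh and, after TYA-018, 1856 to 2265 CPM. When 1 library at a time was left out, 2 to 7 (2 without T1, 2 without T2, 3 without T3, 2 without V1, 2 without V2 and 4 without V3) were called, and under the 4 alternatives 1, 1, 0 and 0. Pecam1†, an adhesion molecule of endothelium, was at 237, 213, 228 and 209 CPM in HFpEF-Veh against 138, 130.1, 144 and 184 CPM in HFpEF-TYA-018. Of 24 endothelin, nitric oxide and cGMP genes 4 were lower (16.7%, against 10.4% of all genes) and none higher, 2 to 4 (2 without T1, 2 without T2, 2 without V2 and 2 without V4) in fits without 1 library and 2, 1, 1 and 1 under the 4 alternatives. Edn1, the vasoconstrictor endothelin 1, was at 5.54, 5.66, 6.26 and 7.22 CPM in HFpEF-Veh and, after TYA-018, 2.59, 2.17, 3.24 and 3.69 CPM (log2 fold change -1.08 ± 0.17, adjusted p 0.00213), and Nos3, the endothelial nitric oxide synthase, fell by 0.19†. Nos3 shares 25.1% of its words with other genes. Whether Edn1 differed from the endothelial list as a whole was not tested.

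Of 25 renin-angiotensin and adrenergic genes 4 were higher and 5 lower (36.0% called, against 19.3% of all genes), and 4 to 5 and 4 to 5 with each library left out in turn. The 4 alternatives gave 4, 2, 1 and 7 higher and 2, 3, 2 and 0 lower. The beta-1 adrenergic receptor Adrb1 was at 4.87, 5.78, 5.59 and 6.42 CPM in HFpEF-Veh against 9.25, 8.62, 7.92 and 7.93 CPM in HFpEF-TYA-018, and the alpha-1 receptor Adra1b (0.43 ± 0.09), the stimulatory G protein Gnas (0.27 ± 0.05) and the mineralocorticoid receptor Nr3c2 (0.41 ± 0.10) rose. Ace (-0.40 ± 0.09†), the inhibitory G protein Gnai2 (-0.24 ± 0.05), the arrestin Arrb1 (-0.30 ± 0.10†‡) and the pericyte regulator Rgs5 fell. Rgs5 was at 606, 599, 602 and 598 CPM in HFpEF-Veh and, after TYA-018, 449, 447, 388 and 490.1 CPM, and of 11 mural cell markers it alone was called.

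Genes that respond to steroid hormones, time of day or handling were looked at as well. Of 16 glucocorticoid and fasting genes 6 were lower and none higher (median -0.45), 5 to 7 in fits without 1 library and 4, 4, 3 and 1 under the 4 alternatives. Sgk1, a kinase induced by glucocorticoids, was at 144, 149, 142 and 122 CPM in HFpEF-Veh, at 80.8, 72.6, 75.3 and 84.1 CPM in HFpEF-TYA-018 and at 80.6, 67.0, 83.5 and 62.9 CPM in Control-Veh. The hormone's direct target Fkbp5 (-0.87 ± 0.14) and Klf9 (-0.62 ± 0.11) fell, but Per1 (0.01 ± 0.10) and Tsc22d3 (-0.16 ± 0.11) did not pass. Of 19 clock genes 3 were higher and 1 lower (21.1% called, against 19.3% of all genes), Per3 (0.59 ± 0.12) and Nr1d1 (-0.68 ± 0.16) among them. Of 20 immediate early genes 1 was higher, Ier3 (0.51 ± 0.13‡), and 1 lower, Klf6 (-0.42 ± 0.09†), in all 10.0% called, below the 19.3% of all genes. Fos (-0.16 ± 0.44) and Egr1 (-1.04 ± 0.53) did not pass. The part of time of day in these values was not tested.

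The remaining lists held calls in both directions. Of 33 antioxidant and redox genes 8 were higher and 1 lower (27.3% called, against 19.3% of all genes). With each library left out in turn 3 to 7 (3 without T1, 5 without T2 and 5 without V1) were higher, and under the 4 alternatives 2, 4, 2 and 13. Prdx3 was at 93.9, 96.2, 104 and 96.4 CPM in HFpEF-Veh against 139, 137, 128 and 129 CPM in HFpEF-TYA-018, Prdx6 rose by 0.34, and Gpx1 fell by 0.39. Of 27 insulin and IGF1 signalling genes 29.6% were called, against 19.3% of all genes. Of these, 5 were higher, including Akt2 (0.27 ± 0.06) and Rptor (0.25 ± 0.06), and 3 lower, including Igfbp4 (-0.37 ± 0.11‡) and Igfbp3 (-0.34 ± 0.11†‡). These were 2 to 4 (2 without T1, 3 without T2, 3 without T3, 2 without V2, 3 without V3 and 3 without V4) and 0 to 3 (0 without T1, 0 without T2, 0 without T3, 1 without V1, 0 without V2 and 1 without V4) in fits without 1 library, and the 4 alternatives gave 2, 1, 0 and 5 higher. Of 21 cholesterol synthesis genes 1 was higher, Insig1 (0.41 ± 0.09), and 1 lower, Hmgcs1 (-0.38 ± 0.12†‡). Of 37 splicing factors 1 was higher, Rbm20, which controls titin splicing (0.44 ± 0.09), and 1 lower, the cold-induced Rbm3 (-0.38 ± 0.09†). The cholesterol and splicing lists had 9.52% and 5.41% of members called, below the 19.3% of all genes. Of 6 tested mesothelial and Schwann cell markers 1 was lower (16.7%, against 10.4% of all genes), Wt1 (-0.35 ± 0.11‡).

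**Figure D5:**
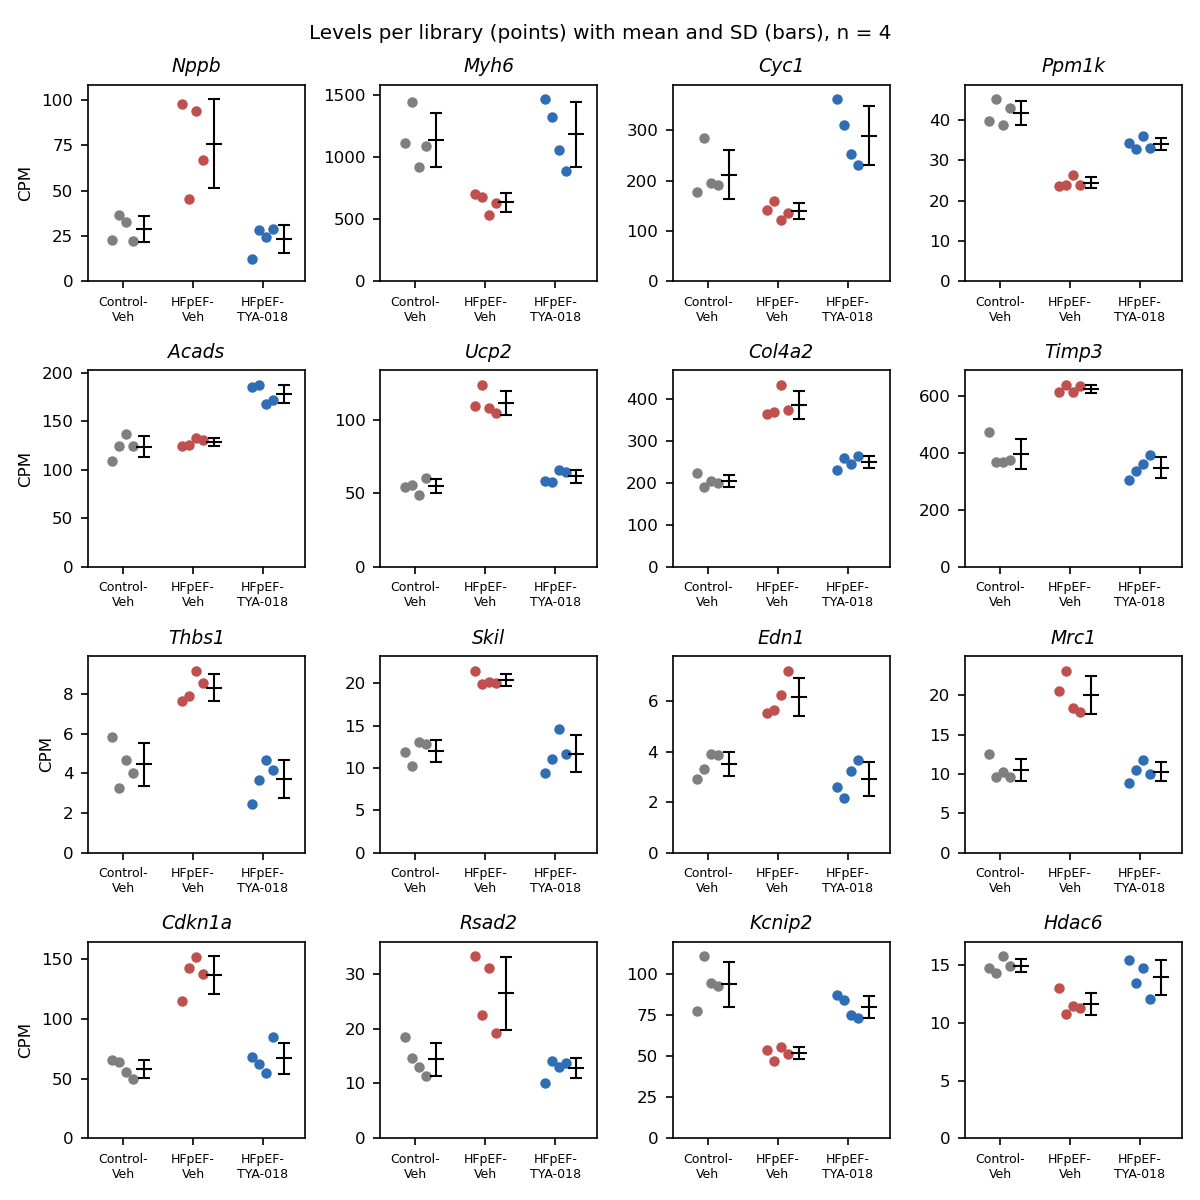
Each panel is 1 gene, each point 1 library, in CPM from 0, with the group mean and SD (n = 4). Nppb, Ucp2, Col4a2, Timp3, Thbs1, Skil, Edn1, Mrc1, Cdkn1a and Rsad2 were lower in all HFpEF-TYA-018 than in all HFpEF-Veh libraries, Myh6, Cyc1, Ppm1k, Acads and Kcnip2 were higher, and Hdac6 overlapped.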

How the data were processed

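Poly(A) RNA of 12 left ventricles was sequenced, and the 3 deposited tables hold estimated counts, TPM and effective lengths for 29564 genes. Per the study's methods the authors trimmed reads with fastp, quantified them against mouse GENCODE transcripts with Salmon and summed them per gene with tximport. The labels name Salmon 1.6.0 and a human genome build, and labels and methods differ on read length and layout. The deposited estimated counts were rounded to whole numbers. The deposited TPM and effective lengths were used as alternatives. All columns of per-sample values were used (0 left out), and 19 rows carried a whole number in place of a symbol.

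Counts of all 12 libraries were filtered with filterByExpr, scaled by TMM and tested with the quasi-likelihood F test of edgeR 4.0.16 in R 4.3.3, two-sided, with Benjamini-Hochberg adjustment over 14333 genes and 9 residual degrees of freedom. A gene was called at an adjusted p under 0.05. CPM are TMM-scaled. The study tested log2 TPM, which was run with limma 3.58.1 as an alternative beside DESeq2 1.42.0, other filters and scalings, an effective length offset, a red cell covariate and leaving out each library. Library totals were between 61.2 and 83.9 M. Scripts were tested on simulated data. P-values measure the spread between mice.

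Genes were named as the 14 largest rises and falls and the 6 smallest p per direction among called, protein-coding genes with a mean of at least 5 CPM and no overlap between the HFpEF-TYA-018 and HFpEF-Veh libraries, the 2 smallest p per direction in each of 48 gene lists, and Hdac6, Nppb and Col3a1. Some genes that this rule takes are not reported here. Other members were named after their values were seen. Members, lists and named genes were chosen with earlier results of these data known. Gene positions came from GENCODE M21 and promoters from RefSeq, both on GRCm38. Shared sequence is the percent of 31-base words of a gene's transcripts that occur in another gene.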

Additional observations from a re-analysis of the deposited data

Results flagged for a closer look

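For 20 of 423 groups of 4 libraries, 1 library stood apart from the other 3 by Dixon's criterion at 95%, which chance gives for about 1 group in 20. In HFpEF-TYA-018 these were Rps7 in T1 (20.5 CPM, the others 7.31 to 8.99), Mki67 in T1 (2.97 CPM, the others 4.59 to 4.86), Kcnj5 in T1 (32.6 CPM, the others 25.3 to 26.0) and Loxl2 in T1 (9.07 CPM, the others 9.98 to 10.1), all in the deepest library. The others in that group were Fam107a in T4 (29.0 CPM, the others 24.6 to 25.2), Cyp4b1 in T4 (35.4 CPM, the others 31.6 to 32.2), Lyve1 in T4 (12.7 CPM, the others 8.62 to 9.18), Fbxo32 in T2 (65.2 CPM, the others 83.5 to 85.8) and Gpx1 in T3 (31.8 CPM, the others 29.3 to 29.7).

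In HFpEF-Veh the libraries that stood apart were those of Rps7 in V2 (4.01 CPM, the others 2.65 to 2.85), Col4a2 in V3 (434 CPM, the others 365 to 375), Skil in V1 (21.5 CPM, the others 19.9 to 20.1) and Ppm1k in V3 (26.4 CPM, the others 23.6 to 23.8). In Control-Veh they were those of Cyc1 in C2 (284 CPM, the others 178 to 194), Bpgm in C3 (19.0 CPM, the others 21.1 to 21.6), Isg20 in C4 (4.96 CPM, the others 4.06 to 4.2002), Tinagl1 in C1 (83.1 CPM, the others 100.5 to 103), Timp3 in C1 (475 CPM, the others 368 to 375) and Klf6 in C1 (68.5 CPM, the others 54.1 to 55.5). In the same group the median log2 effective length relative to the mean of all libraries was -0.0588 in C2, against 0.00379 to 0.0140 in the others. For each named gene among these 19 flags, every HFpEF-TYA-018 library remained beyond every HFpEF-Veh library. For genes named by the largest changes or the smallest p over all genes, this was a condition of the naming.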

How the results depend on the processing

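No paired analysis was possible because every animal number belonged to a single group. The number of genes called, 2767 with 1280 higher and 1487 lower, stayed within 1.5 times that under 8 libraries only, DESeq2, median-ratio size factors, a filter at 1 CPM, no filter, removal of mitochondrial and red cell genes, and the added length and GC offset. It was 1221 (567 higher, 654 lower) with effective lengths as offset, 742 (353 and 389) on rescaled protein-coding TPM, 891 (346 and 545) without V1 and V3, and 0 (0 and 0) with the red cell score as covariate. The split changed on TPM, with 2548 higher and 70 lower on log2(TPM + 0.1), 2228 and 68 on log2(TPM + 1), and 1051 called (1016 and 35) on the latter without a filter. With each library left out in turn, 1485 to 2729 genes were called, 652 to 1262 higher and 833 to 1467 lower. Removing V1 and V3 and the length and GC offset were chosen after the data were seen.

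Of 134 named genes, 134 kept their direction and call in DESeq2 and all but 9 with the length and GC offset. Without V1 and V3 87 did, and between 116 and 126 with each library left out. With effective lengths as offset 90 kept both, and on rescaled protein-coding TPM 75. On log2(TPM + 1) 71 kept both, and 49 without a filter. With the red cell score none of the 134 kept its call in edgeR, and 6 turned in sign, Alas2 0.24, Chac1 -0.0173, Hba-a1 0.15, Hba-a2 0.0998, Hbb-bt 0.31 and Mknk2 -0.0498. Pygb turned with effective lengths as offset (-0.00427) and on rescaled TPM (-0.0153). On log2(TPM + 0.1) and log2(TPM + 1), with or without a filter, 17 genes turned positive, Atp2b1 0.14 and 0.0721, Eif2ak3 0.16 and 0.0752, Fabp4 0.23 and 0.23, Gjc1 0.0834 and 0.0724, Hdac1 0.11 and 0.0955, Hdac7 0.28 and 0.25, Hk1 0.34 and 0.31, Hmgcs1 0.0951 and 0.0399, Igfbp3 0.18 and 0.16, Kcna5 0.00172 and 0.00380, Klf6 0.0788 and 0.0678, Nos3 0.0861 and 0.0696, Oasl2 0.0246 and 0.0195, Pdia3 0.14 and 0.12, Pecam1 0.14 and 0.13, Rbm3 0.22 and 0.20 and Sirt1 0.0556 and 0.0275. The cause of these turns was not tested. Differences in the 7 library measures moved by less than 1 SD under every setting run.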

Other observations

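Transcripts of liver proteins were detected at low levels and split the dosed libraries. A list of 15 liver genes, chosen after the data were seen, summed to 17.9, 24.0, 118 and 62.7 CPM in T1 to T4, 41.5, 26.8, 24.7 and 28.8 CPM in V1 to V4 and 78.0, 59.3, 103 and 134 CPM in C1 to C4. Alb, which encodes serum albumin, was at 1.19, 3.56, 46.2 and 19.1 CPM in T1 to T4 and 6.96, 0.775, 0.987 and 4.81 CPM in V1 to V4. T3 was highest and T1 lowest among the dosed libraries, and the ranges of the 2 HFpEF groups overlapped. No test was run on these genes, and their source was not tested.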
